A study of Mus musculus with 2 samples.

Results

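Imprinted genes are read mainly or only from the copy inherited from 1 parent. A list of 42 of them was followed in forebrain of mouse embryos at day 15.5 (E15.5), and 41 had a row in both gene tables, out of 43346 mouse genes. Peg13 was not analysed here. Members were listed by name as known imprinted genes, with no threshold on their levels but with earlier results of these data known, and were sorted by cluster and by expressed allele from general knowledge. The series holds 1 group, forebrain of strain B6NCrl embryos of mixed sex, with 2 libraries from pools of 78 embryos (replicate 1) and 62 embryos (replicate 2). The labels name no mutation and no treatment, and pooling hides any difference between single embryos. Total RNA was measured by sequencing, at 38720511 and 35103430 estimated reads for replicate 1 and replicate 2. Levels are given as TPM, a read share corrected for gene length and scaled to 1 fixed sum per library, so that genes can be set side by side. With 2 libraries of 1 group there is no contrast to test: the smallest two-sided exact sign-flip p would be 0.5, and values are given per library or as mean ± SD (n = 2).

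Imprinting rests on DNA methylation laid down differently in the egg and the sperm at imprinting control regions, and kept through the divisions of the embryo. Most imprinted genes lie in clusters, in which genes of opposite parental allele, long noncoding RNAs and small RNA hosts share a control region. Many of them act on growth, on the placenta and on the hypothalamus and its behaviours, and several switch allele or escape imprinting in the brain. The files hold no reads split by allele. The words paternal and maternal therefore name the allele known to be expressed, and nothing below measures it.

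Of 10 forebrain marker genes, 10 stood at 1 TPM or more, against 60.6% of protein-coding genes. They were led by Neurod6, Dlx1, Neurod2 and Lhx2, with Emx2 the lowest at 12.25 and 16.45 TPM, and summed to 1103 TPM in replicate 1 and 1124 TPM in replicate 2. Red cell genes were also present, 6 of 6 at 1 TPM or more and summing to 11329 and 10382 TPM. So were 7 of 7 endothelial genes, at 149 and 158 TPM. Since markers of other cell types passed as well, the counts alone do not test the forebrain label. Bulk RNA cannot tell fewer cells of a type from less RNA per cell, for any gene below.

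Most of the imprinted genes listed were expressed in this tissue. In both libraries 37 of 41 members reached 1 TPM, against 34.4% of all genes and 60.6% of protein-coding genes. In both libraries 10 of 41 members reached 100 TPM, against 3.94% of all genes and 7.55% of protein-coding genes. The median member stood at 32.4 TPM, against 4.76 TPM for protein-coding genes and 0.085 TPM for all genes. These contrasts describe a list drawn up by hand and not imprinted genes as a class. Among 42 further imprinted genes, 30 reached 1 TPM and the median was 4.05 TPM. The members together held 11044 TPM in replicate 1 and 10688 TPM in replicate 2, which is 1.17 and 1.13% of all gene TPM. A single gene, Nnat, made up 53.1 and 53.7% of that sum, and without it the median member was at 32.3 TPM.

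Levels spanned 4 ranges: 10 members at 100 TPM or more, 19 from 10 to under 100 TPM, 8 from 1 to under 10 TPM and 4 under 1 TPM. The 4 lowest were Rtl1 (0.89 and 0.83 TPM), Zim1 (0.51 and 0.72 TPM), Slc22a18 (0.24 and 0.82 TPM) and Phlda2 (0.39 and 0.21 TPM). Phlda2, known for restraining growth of the placenta, rested on 6 and 3 reads, and Slc22a18, a transporter-like protein, on 8 and 15 reads. At this depth the statement is that they were near the limit of detection, not that they were absent.

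**Figure D1:**
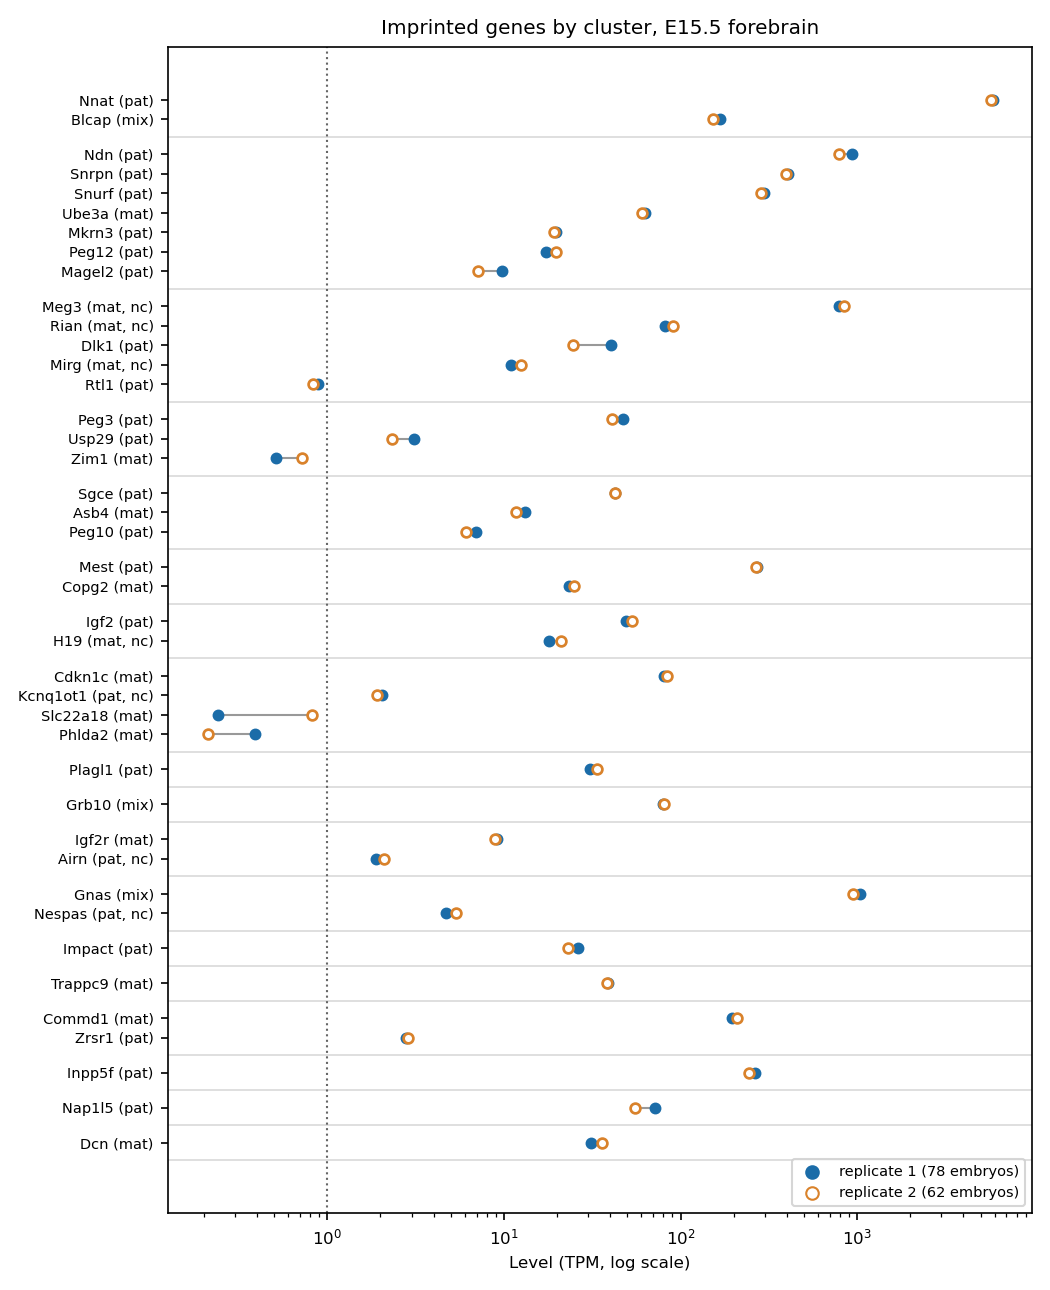
Level of each of the 41 imprinted genes in TPM on a log axis, grouped by cluster, with replicate 1 as filled and replicate 2 as open points; pat, mat and mix give the known expressed allele and nc marks noncoding members. The dotted line is 1 TPM, and the 4 members left of it are Rtl1, Zim1, Slc22a18 and Phlda2.

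The neighbours Blcap and Nnat differed widely, with the gene inside the intron far the higher. Nnat encodes neuronatin, a proteolipid of the endoplasmic reticulum, is paternally expressed and sits at chr2:157560078-157562522 (mm10, plus strand) within an intron of Blcap, which encodes a small membrane protein. Nnat had 5860 TPM in replicate 1 and 5742 TPM in replicate 2, above 99.97% of protein-coding genes, from 148138 and 133361 reads. Blcap, whose promoters differ in imprinting, had 167 and 152 TPM. The log2 ratio of Blcap over Nnat was -5.18 ± 0.07 (SD, n = 2). Nnat was carried by a pair of coding transcripts of almost equal share, Nnat-205 at 46.13% and Nnat-202 at 46.12% of its TPM, which start 32 nt apart.

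The Prader-Willi/Angelman cluster on chromosome 7 is the one whose loss causes those syndromes in people. All 7 of its members in the list passed 1 TPM, and 3 passed 100 TPM, against 60.6 and 7.55% of protein-coding genes. Ndn encodes necdin, a MAGE family protein of postmitotic neurons, and had 935 and 793 TPM. Snrpn, which encodes the SmN protein of the spliceosome in neurons, had 406 and 396 TPM. Snurf, the small reading frame upstream of Snrpn on the same transcript, was listed at 297 and 285 TPM. Snurf and Snrpn share 9601 nt on the same strand, and Snurf is modelled as 216 nt with 813 and 718 reads, so how reads were divided between them sets both values.

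The rest of that cluster stood far below Ndn. Magel2, a MAGE family regulator of ubiquitin ligases whose start lies 30.4 kb from that of Ndn, had 9.81 and 7.12 TPM, a log2 ratio over Ndn of -6.67 ± 0.15 (SD, n = 2). Mkrn3, a makorin ubiquitin ligase known for its part in the timing of puberty, had 19.8 and 19.2 TPM, and Peg12, a Frat family inhibitor of Gsk3, had 17.3 and 19.7 TPM. So 4 paternal genes that share a control region spanned a 102-fold range, with Ndn highest and Magel2 lowest in each pool and Mkrn3 and Peg12 overlapping between them. Ube3a, the ubiquitin ligase lost in Angelman syndrome and maternally expressed in neurons, had 63.3 and 60.2 TPM. Its log2 ratio over Snrpn was -2.70 ± 0.03 (SD, n = 2). Ube3a overlaps the paternal transcript Snhg14 over 3613 nt on the opposite strand, and Snhg14 was itself at 94.5 and 90.6 TPM. Since no source used here states whether counting used strand, reads in that overlap could belong to either gene.

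The Dlk1-Dio3 cluster on chromosome 12 pairs paternal coding genes with maternal noncoding RNAs. Meg3, a long noncoding RNA at chr12:109541001-109571726 (mm10, plus strand), had 785 and 842 TPM. Rian, a host of C/D box small nucleolar RNAs, had 81.7 and 91.2 TPM. Mirg, a host of many microRNAs, had 11.03 and 12.52 TPM. These 3 RNAs stepped down along the chromosome, since the start of Rian lies 62.9 kb past that of Meg3 and the start of Mirg a further 125.8 kb on. The log2 ratio over Meg3 was -3.23 ± 0.04 for Rian and -6.10 ± 0.06 for Mirg (SD, n = 2 each).

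On the paternal side, Dlk1, a transmembrane ligand of the Notch family, had 40.2 and 24.6 TPM. The log2 ratio of Meg3 over Dlk1 was 4.28 in replicate 1 and 5.09 in replicate 2, or 25.8-fold on average. Rtl1, a protein derived from a retrotransposon that the placenta needs, had 0.89 and 0.83 TPM from 131 and 112 reads. Its log2 ratio over Dlk1 was -5.04 ± 0.44 (SD, n = 2). Within the Rtl1 gene, on the other strand, lie 6 microRNA hairpins that are read from the maternal allele. All 11 of their mature sequences match the Rtl1 transcript end to end, as full complements. Mature microRNAs were not measured here, because RNA under 200 nt was removed. The 4 pairs below are given to show how the maternal strand faces the low paternal transcript; capitals mark the seed (bases 2 to 8) of the microRNA and the bases of Rtl1 opposite it, microRNAs are from RefSeq (GRCm38.p6) and the Rtl1-201 transcript is from GENCODE M21.
miR-127-3p: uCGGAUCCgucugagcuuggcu
its complement in Rtl1-201, bases 2642 to 2663: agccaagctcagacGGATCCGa
miR-431-5p: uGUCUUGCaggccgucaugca
its complement in Rtl1-201, bases 5072 to 5092: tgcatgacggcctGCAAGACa
miR-434-3p: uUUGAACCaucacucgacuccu
its complement in Rtl1-201, bases 965 to 986: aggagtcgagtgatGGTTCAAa
miR-136-5p: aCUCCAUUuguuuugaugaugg
its complement in Rtl1-201, bases 199 to 220: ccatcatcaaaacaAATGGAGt

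The other maternal transcripts of the cluster hold microRNAs on their own strand. Mirg spans 14 hairpins with 26 mature sequences, Rian 3 hairpins with 6, and Meg3 2 hairpins with 3. Over all members, 8 genes held 56 mature sequences with 55 different seeds. The single seed held by more than 1 was GGUUGCC, shared by miR-453 and miR-496a-5p, both inside Mirg. The 6 sequences below show that pair and 1 or 2 from each host, with the seed in capitals (RefSeq, GRCm38.p6).
miR-770-5p: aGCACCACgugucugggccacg
miR-370-3p: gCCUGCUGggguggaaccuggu
miR-134-5p: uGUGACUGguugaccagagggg
miR-410-3p: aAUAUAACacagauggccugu
miR-453: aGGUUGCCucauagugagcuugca
miR-496a-5p: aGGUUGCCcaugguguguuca

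The Igf2-H19 cluster holds the growth factor Igf2, read from the paternal allele, and the maternal noncoding RNA H19. H19 had 18.1 and 21.1 TPM and Igf2 had 49.0 and 53.4 TPM. H19 was the lower of the neighbours in both libraries, with a log2 ratio over Igf2 of -1.38 ± 0.07 (SD, n = 2), or 2.61-fold lower. In the embryonic brain Igf2 is known from the meninges, vessels and choroid plexus rather than from neurons. Beside it, the 9 mesenchymal and meningeal markers, led by the collagens Col3a1, Col1a1 and Col1a2 and by Lum, and with Foxd1 lowest at 0.85 and 0.87 TPM, had 8 genes at 1 TPM or more and summed to 175.65 TPM in replicate 1 and 175.67 TPM in replicate 2. Their part in the level of Igf2 was not tested. Dcn, the maternally expressed proteoglycan decorin of connective tissue, had 31.1 and 35.7 TPM.

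The genes that act with Igf2 were all measured. Igf2r, the maternally expressed receptor that clears Igf2 and sorts lysosomal enzymes, had 9.18 and 8.92 TPM. Grb10, an adaptor that restrains insulin and growth factor receptors, had 79.7 and 81.0 TPM. Plagl1, a zinc finger factor known to control other imprinted genes, had 30.6 and 33.8 TPM. Cdkn1c, the maternally expressed cell cycle inhibitor p57, had 80.9 and 84.4 TPM. Of a list of 12 partners, all 12 stood at 1 TPM or more in both libraries, against 60.6% of protein-coding genes. The highest were the binding proteins Igfbp2 (285 and 278 TPM) and Igfbp4 (113 and 116 TPM), the insulin receptor Insr (51.0 and 53.2 TPM) and Igfbp3 (33.4 and 28.8 TPM). The lowest was Igf1, the other insulin-like growth factor, at 3.12 and 3.83 TPM. Thus the growth-restraining members Grb10 and Cdkn1c stood above Igf2 itself in each library, and Igf2r below it. The place of Igf2r holds per length only, since it had 1799 and 1668 reads against 1557 and 1429 for Igf2.

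H19, Igf2 and Mest each also hold 1 microRNA hairpin. The mature sequences of their 5p arms are given, with seeds in capitals, since they are the best-known small products of these genes (RefSeq, GRCm38.p6).
miR-675-5p: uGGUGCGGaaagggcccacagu
miR-483-5p: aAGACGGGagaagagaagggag
miR-335-5p: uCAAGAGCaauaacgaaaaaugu

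In the Kcnq1 cluster, the control region is the promoter of the paternal noncoding RNA Kcnq1ot1. Cdkn1c had 80.9 and 84.4 TPM, against 2.03 and 1.91 TPM for Kcnq1ot1, a log2 ratio of Cdkn1c over Kcnq1ot1 of 5.32 ± 0.10 (SD, n = 2). Cdkn1c rested on 3407 and 3267 reads, and Kcnq1ot1, which is modelled at 84395 nt, on 3999 and 3454 reads. Without length correction the ratio was -0.16, so the gap is one of reads per length and not of reads. Kcnq1ot1 also overlaps Kcnq1 over 93092 nt on the opposite strand, where Kcnq1 was at 0.68 and 1.17 TPM. Phlda2 and Slc22a18, maternal like Cdkn1c, had log2 ratios over it of -7.73 ± 0.51 and -7.21 ± 0.97 (SD, n = 2 each). In this cluster 1 of 3 maternal coding genes was well measured.

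The antisense noncoding RNAs of 2 further clusters were low beside their coding partners. Igf2r was at 9.18 and 8.92 TPM, and Airn, the paternal RNA that silences it in most tissues outside neurons, at 1.88 and 2.09 TPM. Airn rested on 35 and 40 reads, and the files hold it through spliced transcripts of 941 nt on average and not through its long unspliced form. Igf2r over Airn gave a log2 ratio of 2.14 ± 0.13 (SD, n = 2). Gnas, the alpha subunit of the stimulatory G protein, was at 1036 and 945 TPM and second among all members. Nespas, the paternal antisense RNA of its cluster, was at 4.71 and 5.35 TPM. Gnas over Nespas gave a log2 ratio of 7.59 ± 0.22 (SD, n = 2). The overlaps on opposite strands, 28354 nt for Igf2r with Airn and 11117 nt for Gnas with Nespas, mean that some reads could belong to either gene. Most Gnas RNA began outside that overlap, since transcripts starting 45.7 kb into the gene held 95.7% of its TPM. Those at its most upstream start, which faces Nespas, had 9.90 and 10.7 TPM, against 4.71 and 5.35 TPM for Nespas.

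The Peg3 and Peg10 clusters each hold a head-to-head pair of paternal genes. Peg3, a zinc finger protein linked to maternal behaviour in mice, had 47.5 and 41.2 TPM, and Usp29, a ubiquitin-specific peptidase that starts 147 nt away on the other strand in GENCODE M21, had 3.11 and 2.31 TPM. The log2 ratio of Usp29 over Peg3 was -3.99 ± 0.15 (SD, n = 2). The only Usp29 transcript in the files starts 230582 nt into the gene, so the value does not count what begins at the shared region. Zim1, their maternal neighbour, was at 0.51 and 0.72 TPM from 38 and 48 reads. Sgce, epsilon-sarcoglycan, had 42.7 and 42.7 TPM, and Peg10, a retrotransposon-derived gene that the placenta needs, had 6.95 and 6.08 TPM, although their starts lie 99 nt apart. Sgce over Peg10 gave a log2 ratio of 2.70 ± 0.13 (SD, n = 2). Asb4, a maternal ankyrin repeat protein beside them, had 13.2 and 11.7 TPM, above Peg10 in each library. Per length, Sgce was 6.48-fold above Peg10, and Peg3 was 15.9-fold above Usp29 as counted. The Peg3 gap does not compare the head-to-head starts, since no counted Usp29 transcript begins there.

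The window around the shared Peg3 and Usp29 start is printed because both genes begin in it. It holds 13 CpG (the letters CG, which read alike on both strands and are shown in capitals). That count is reached by 37.9% of 32851 promoter windows of 300 bases, taken from 250 before to 50 after a start (RefSeq, GRCm38.p6). It is written on the Peg3 strand, where the Peg3 start is base 251 and the Usp29 start is base 87. In these RefSeq models the starts lie 164 nt apart, and in GENCODE M21 147 nt.
Peg3 and Usp29, chr7:6730370-6730669, minus strand: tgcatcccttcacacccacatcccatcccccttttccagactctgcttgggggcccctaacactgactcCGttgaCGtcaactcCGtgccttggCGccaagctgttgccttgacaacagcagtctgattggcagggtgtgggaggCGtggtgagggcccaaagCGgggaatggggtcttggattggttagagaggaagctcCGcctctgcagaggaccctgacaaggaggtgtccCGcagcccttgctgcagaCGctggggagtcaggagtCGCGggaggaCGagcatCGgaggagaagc

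The remaining members stood as follows. Mest, an alpha/beta hydrolase fold protein of the paternal allele, had 273 and 267 TPM, and Copg2, a coatomer subunit that meets it tail to tail over 912 nt, had 23.2 and 24.9 TPM. Commd1, a COMM domain protein, had 195 and 208 TPM, and Zrsr1, the paternal splicing factor relative inside its intron, had 2.78 and 2.85 TPM. The log2 ratio of Commd1 over Zrsr1 was 6.11 ± 0.04, the reverse of the order at Blcap and Nnat, where the gene inside the intron was the higher. Inpp5f, a phosphoinositide phosphatase, had 263 and 244 TPM. Nap1l5, a nucleosome assembly protein-like gene that overlaps Herc3 over 1844 nt on the other strand, had 71.9 and 55.6 TPM. Trappc9, a subunit of the TRAPP vesicle tethering complex that is maternally biased in mouse brain, had 39.02 and 38.29 TPM. Impact, an inhibitor of the Gcn2 kinase on chromosome 18, had 26.2 and 23.2 TPM.

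In 22 of 22 pairs of neighbours, the mean log2 ratio was larger in size than 2 SD over the libraries. This count has no background share. With 2 libraries it says only that neighbours kept their order in both pools, with a gap wide beside the difference between pools. In 11 pairs a maternal or mixed gene was set over a paternal one. It was the higher in 6 and the lower in 5. Among those, the smallest gap was that of Asb4 over Peg10, at 0.92 ± 0.01, and the widest that of Gnas over Nespas, at 7.59 ± 0.22. Of 11 pairs of the same allele, the smallest gap was that of Snurf over Snrpn, at -0.46 ± 0.02, and the widest that of Phlda2 over Cdkn1c, at -7.73 ± 0.51 (SD, n = 2 each). Gnas and Blcap are of mixed class, and the widest gap between a maternal and a paternal gene was that of Commd1 over Zrsr1, at 6.11 ± 0.04. Wide gaps thus occurred among neighbours of the same allele as well as of opposite alleles. These sizes hold for levels per length. Without length correction 21 of 22 pairs kept their direction, but 17 moved by more than their SD. Snurf over Snrpn, with Snurf modelled at 216 nt, then stood at -4.43, Igf2r over Airn at 5.402, Commd1 over Zrsr1 at 3.37 and Ube3a over Snrpn at -1.26. Sgce over Peg10 stood at 1.304, Usp29 over Peg3 at -5.59, Rtl1 over Dlk1 at -2.87 and Zim1 over Peg3 at -7.33. Magel2, Mkrn3 and Peg12 over Ndn stood at -5.13, -4.80 and -4.83, Blcap over Nnat at -4.43 and Mirg over Meg3 at -6.79. Phlda2 and Slc22a18 over Cdkn1c stood at -8.72 and -7.82.

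**Figure D2:**
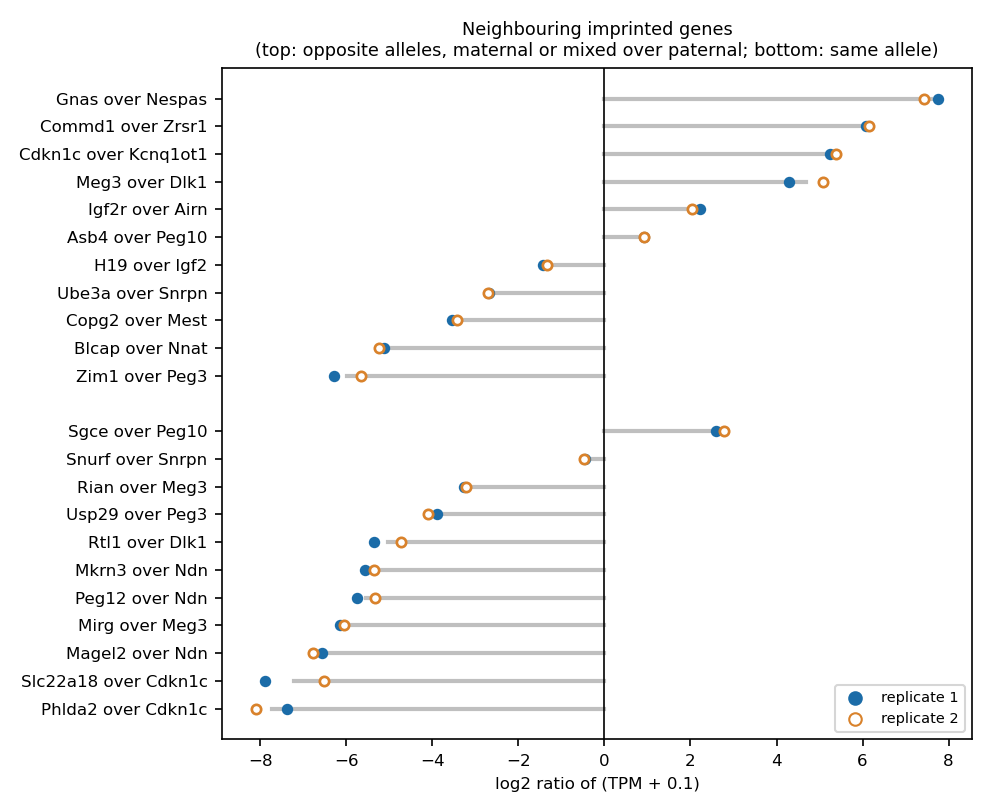
log2 ratio of (TPM + 0.1) for 22 pairs of neighbouring imprinted genes in replicate 1 (filled) and replicate 2 (open), with grey bars to the mean. The upper 11 set a maternal or mixed gene over a paternal one, and the lower 11 are of the same allele. The points of a pair lie on the same side of 0 in every row, and the upper pairs fall on both sides, 6 right and 5 left.

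By expressed allele, 23 paternal members had a median of 32.2 TPM with 22 at 1 TPM or more, and 15 maternal members had a median of 24.1 TPM with 12. At 1 TPM or more stood 60.6% of protein-coding genes and 34.4% of all genes. The difference of medians on the log2(TPM + 0.1) scale, paternal minus maternal, was 0.42, with 0.40 in replicate 1 and -0.0174 in replicate 2. The SD of the library values was 0.29, so the difference was larger than 1 SD and smaller than 2 SD, and replicate 2 alone had the other sign. It also changed sign when length was left uncorrected (-0.0898) or when members that are imprinted only in some tissues were left out (-1.55). No order of the parental classes can be read from these libraries. The 3 members of mixed class, Gnas, Grb10 and Blcap, had a median of 160 TPM.

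By RNA class, 34 coding members had a median of 36.0 TPM and 7 noncoding members a median of 11.8 TPM. All 7 noncoding members stood at 1 TPM or more, against 15.0% of annotated noncoding genes. So did 30 of the 34 coding ones, against 60.6% of protein-coding genes. The difference of medians, coding minus noncoding, was 1.60 ± 0.20 on the log2 scale (SD, n = 2), or 3.03-fold. It rested on the antisense and nested RNAs: without them it was -0.20. The 3 paternal noncoding RNAs, Nespas, Kcnq1ot1 and Airn, had a median of 1.99 TPM. The 4 maternal ones, Meg3, Rian, H19 and Mirg, had a median of 53.0 TPM. The lowest of these stood at 11.8 TPM and the highest paternal one at 5.03 TPM. All 3 paternal ones are annotated as antisense and the 4 maternal ones are not, so allele and antisense class cannot be told apart. That gap is one of levels per length and not of reads. Kcnq1ot1, modelled at 84395 nt, had 3999 and 3454 reads, above Rian (3591 and 3392), H19 and Mirg.

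**Figure D3:**
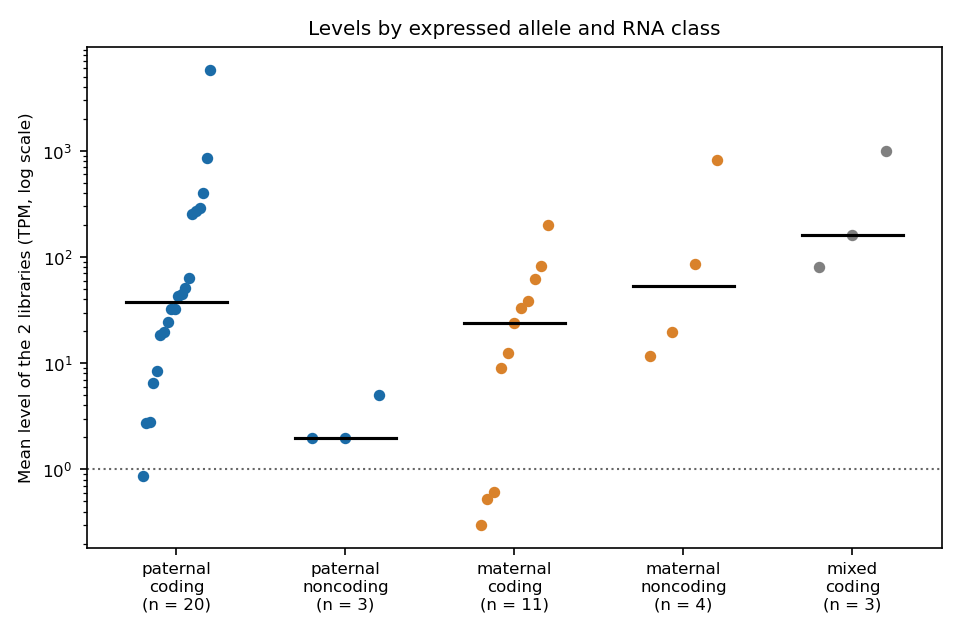
Mean TPM of each imprinted gene over the 2 libraries on a log axis, by known expressed allele and RNA class, with black lines at the class medians and a dotted line at 1 TPM. The medians were 37.5 TPM for paternal coding, 1.99 TPM for paternal noncoding, 24.1 TPM for maternal coding, 53.0 TPM for maternal noncoding and 160 TPM for mixed members.

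Several imprinted genes have a start that is imprinted and another that is not, so the transcript in use matters. Of 33 members at 5 TPM or more, 10 had a leading transcript under 60% of the gene's TPM, against 29.3% of all genes at that level, and 8 had a single transcript. The 10 were Sgce (30.5%), Rian (33.4%), Mirg (33.8%), Igf2 (38.6%), Commd1 (40.4%), Peg10 (44.4%), Meg3 (44.7%), Nnat (46.1%), H19 (48.5%) and Dlk1 (50.6%). The share among members was near the background, and 4 of the 10 were the maternal noncoding RNAs. A split does not by itself mean different starts. In Sgce 95.3% and in Nnat 99.7% of TPM came from 1 group of nearby starts. Shares of transcripts are estimates where transcripts overlap, and some moved between pools: coding transcripts made up 47.1% of Sgce in replicate 1 and 63.7% in replicate 2. Igf2 was spread over Igf2-208, which is annotated as not coding (38.6%), Igf2-203 (32.2%) and Igf2-202 (18.7%), and its coding share was 57.6 and 60.9%. In Commd1 a retained intron transcript, Commd1-205, held 24.96%.

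**Figure D4:**
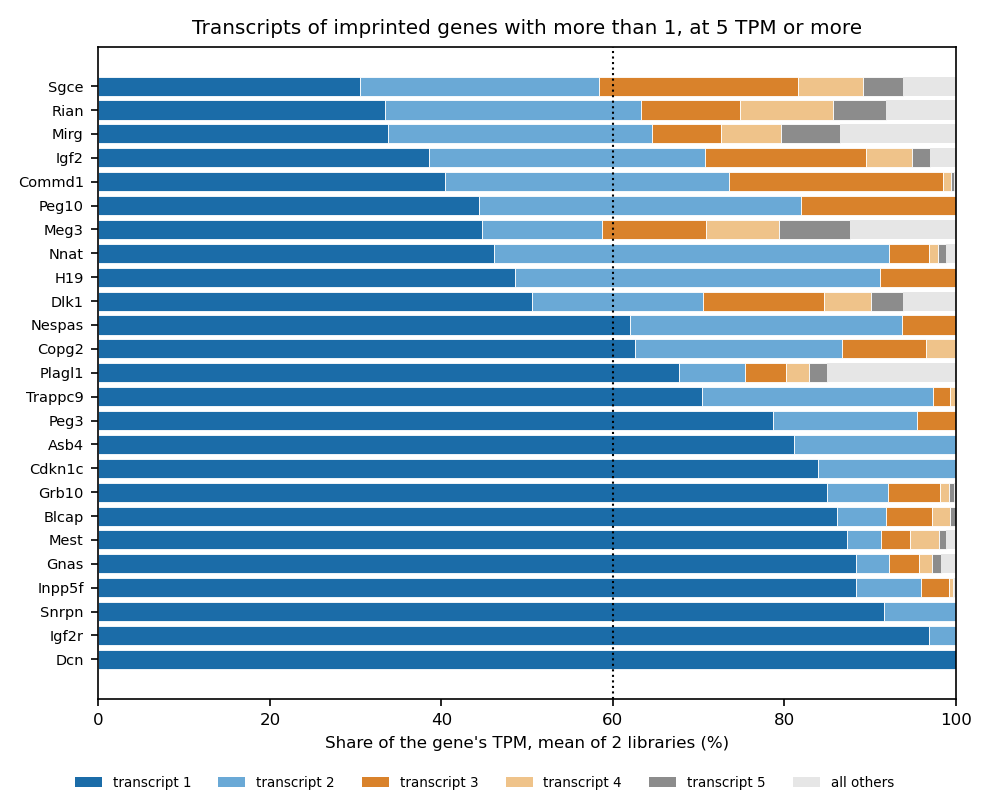
Share of each gene's TPM held by its transcripts, mean of 2 libraries in percent, for the imprinted genes with more than 1 transcript and a mean of 5 TPM or more, ordered by the leading transcript. The dotted line marks 60%, and the leading transcript of Sgce, at 30.5%, is the lowest share.

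Gnas has several starts. The most upstream one gives the maternal transcript Nesp, and one far downstream the G protein subunit, known to be read from both alleles in most tissues. Transcripts starting 45.7 kb into the gene held 95.7% of its TPM, at 994 and 902 TPM, led by Gnas-208. Those at the most upstream start held 1.04%, at 9.90 and 10.7 TPM, and those at 43.2 kb, 1 of 7 groups of starts in all, held 2.08%, at 21.3 and 19.9 TPM. The windows at these starts, the leading one first and the most upstream one second, are printed with CpG in capitals, since nearly all Gnas RNA came from the first and little from the second. The downstream window holds 40 CpG, a number reached by 3.91% of all windows, and the upstream window 16, reached by 33.0% (RefSeq, GRCm38.p6).
Gnas, downstream start, chr2:174329756-174330055, plus strand: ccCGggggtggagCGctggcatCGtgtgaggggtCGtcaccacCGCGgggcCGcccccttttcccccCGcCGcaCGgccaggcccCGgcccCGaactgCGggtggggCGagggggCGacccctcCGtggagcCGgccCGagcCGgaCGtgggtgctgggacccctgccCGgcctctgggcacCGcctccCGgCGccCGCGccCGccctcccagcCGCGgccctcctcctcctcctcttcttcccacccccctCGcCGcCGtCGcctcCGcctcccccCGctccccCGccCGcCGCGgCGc
Gnas, most upstream start, chr2:174284070-174284369, plus strand: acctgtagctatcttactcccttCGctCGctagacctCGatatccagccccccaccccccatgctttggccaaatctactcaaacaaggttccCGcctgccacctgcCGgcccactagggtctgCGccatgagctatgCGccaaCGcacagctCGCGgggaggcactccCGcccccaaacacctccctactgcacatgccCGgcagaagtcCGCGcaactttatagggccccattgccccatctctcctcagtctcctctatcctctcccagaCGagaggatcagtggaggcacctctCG

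Grb10 is paternal in neurons and maternal in most other tissues, from different starts. Grb10-201, which starts 1.3 kb into the gene, held 85.0% of its TPM, at 65.0 and 71.5 TPM. Grb10-207 and Grb10-203, which start 11951 and 10712 nt into the gene, held 7.08 and 6.12%. The window near the leading start holds 45 CpG, a count reached by 1.93% of all windows. The window at the Grb10-203 start holds 9, reached by 45.8%. They are shown for that contrast, with CpG in capitals (RefSeq, GRCm38.p6).
Grb10, start of the leading transcript, chr11:12037371-12037670, minus strand: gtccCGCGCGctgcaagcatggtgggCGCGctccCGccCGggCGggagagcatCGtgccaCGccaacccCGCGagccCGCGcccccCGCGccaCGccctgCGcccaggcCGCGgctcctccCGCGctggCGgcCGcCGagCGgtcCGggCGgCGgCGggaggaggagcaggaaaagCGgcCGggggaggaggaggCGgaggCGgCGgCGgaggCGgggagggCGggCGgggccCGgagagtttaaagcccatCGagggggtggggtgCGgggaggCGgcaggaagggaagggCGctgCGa
Grb10, start inside the gene, chr11:12027922-12028221, minus strand: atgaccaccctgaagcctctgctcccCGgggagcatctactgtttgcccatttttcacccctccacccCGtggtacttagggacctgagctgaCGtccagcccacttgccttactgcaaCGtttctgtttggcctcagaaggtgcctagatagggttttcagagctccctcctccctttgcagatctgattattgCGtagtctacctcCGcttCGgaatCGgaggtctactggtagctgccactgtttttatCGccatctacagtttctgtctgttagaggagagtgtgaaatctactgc

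Mest showed the same kind of contrast. Transcripts starting 14.5 kb into the gene, led by Mest-211, held 90.8% of its TPM, at 246 and 244 TPM. Those within 100 nt of the RefSeq start at 10.0 kb had 0 TPM in replicate 1 and 0.70 TPM in replicate 2. The first window holds 17 CpG, reached by 31.4% of all windows, and the second holds 8, reached by 48.65%.
Mest, start of the leading transcript, chr6:30737800-30738099, plus strand: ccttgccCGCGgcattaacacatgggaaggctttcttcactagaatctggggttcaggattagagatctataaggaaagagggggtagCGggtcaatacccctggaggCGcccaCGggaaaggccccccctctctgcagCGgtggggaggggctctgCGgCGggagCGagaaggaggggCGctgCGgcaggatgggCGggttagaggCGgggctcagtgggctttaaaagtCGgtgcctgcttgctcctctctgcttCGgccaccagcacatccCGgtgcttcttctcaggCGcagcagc
Mest, start further upstream, chr6:30733256-30733555, plus strand: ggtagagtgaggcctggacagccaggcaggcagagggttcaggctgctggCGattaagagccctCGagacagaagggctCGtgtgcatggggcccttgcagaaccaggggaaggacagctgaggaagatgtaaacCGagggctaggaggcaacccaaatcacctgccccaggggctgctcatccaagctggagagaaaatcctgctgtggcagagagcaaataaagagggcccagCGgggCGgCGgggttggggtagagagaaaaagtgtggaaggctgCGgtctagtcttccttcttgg

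The windows printed for Gnas, Grb10 and Mest are those with the most and the fewest CpG of each gene, picked after the start shares were seen, and in each gene the one with the most was at the leading start. Over the 32 member symbols with a window, the 47 windows had a median of 13 CpG, against 7 over all windows. Some member windows overlap or are shared, and the background was not limited to genes expressed here, so the medians are not matched. The link of the highest CpG count to the leading start was not general. In Asb4 the window with 6 CpG was at the start that held 83.4 and 78.5% of TPM, and the window with 8 at the start that held 16.6 and 21.5%. In Igf2 no transcript began within 100 nt of the window with 24 CpG. The window at the annotated Rian start holds 0 CpG, and transcripts within 100 nt of it held 0.624 and 0.263% of Rian TPM. Meg3 transcripts at its first start, with 13 CpG, held 62.4% of Meg3 TPM. A CpG count describes the letters of a window and was not set against methylation, which was not measured.

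Inpp5f, Plagl1, Blcap and Snrpn were also carried by internal starts. Inpp5f-208, which starts 76.2 kb into the gene, held 88.4%, at 230 and 218 TPM, and the transcripts at the first start held 3.71%, at 10.0 and 8.79 TPM. In the mouse it is a short variant starting inside Inpp5f that is known to be imprinted, and whether Inpp5f-208 is that variant is not given in the files. Transcripts of Plagl1 starting from 30.2 kb held 97.6%, and those of Blcap from 4.9 kb held 97.2%. Snrpn-201, which starts 135.1 kb past the first Snrpn start, held 91.6%, and Snrpn-202 at that first start held 8.42%. Peg3-201 held 78.6% of Peg3, and Ube3a had 1 transcript.

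The pools differed little for most imprinted genes. Of 40 members with 10 or more summed reads, 7 differed by more than 25% between replicate 1 and replicate 2 (larger over smaller), against 21.7% of all genes and 15.3% of protein-coding genes. The members' count of 7 in 40 lies between these shares, and nothing particular to imprinted genes is read from it. The ones higher in replicate 1 were Dlk1, Magel2, Usp29 and Nap1l5 (background 11.6%), and those lower were Airn, Zim1 and Slc22a18 (background 10.2%). The 3 lower ones rested on few reads, and their 95% counting intervals held 1: Airn had a ratio of 0.795 (0.489 to 1.28), Zim1 0.720 (0.456 to 1.12) and Slc22a18 0.497 (0.178 to 1.21). Among genes with 1000 or more summed reads, a limit chosen after seeing the data, 3 of 32 members passed that limit, against 1.56% of genes. These 3 were Dlk1, Magel2 and Nap1l5. The median size of the log2 ratio at that depth was 0.114 over members and 0.0618 over all genes.

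Dlk1 had 1200 reads in replicate 1 and 688 in replicate 2, a scaled ratio of 1.58 (95% counting interval 1.44 to 1.74). Magel2 had 1048 and 699 reads, a ratio of 1.36 (1.234 to 1.498), and Nap1l5 had 3018 and 2145 reads, a ratio of 1.28 (1.21 to 1.35). The intervals cover counting error only, and reads are not independent molecules. The maternal RNAs of the Dlk1 cluster had log2 ratios of -0.12 for Meg3, -0.06 for Rian and -0.17 for Mirg, so that of Dlk1 had the opposite sign. Ndn, next to Magel2, had a ratio of 1.16 (1.15 to 1.18). Scaled on the spike-ins, which moved the median of all genes by -0.20 on the log2 scale, Dlk1 stayed past the limit at a log2 ratio of 0.46, while Magel2 (0.24) and Nap1l5 (0.15) did not. Under that scaling 9 of 40 members passed the limit, 1 higher and 8 lower in replicate 1, against 30.3% of all genes.

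Markers of 2 regions that a forebrain dissection can include moved in the same direction. The 10 hypothalamic markers summed to 80.9 TPM in replicate 1 and 28.3 TPM in replicate 2, with 9 of 10 higher in replicate 1, 8 of 10 at 1 TPM or more and none at 0. The highest were the hormone gene Avp (40.9 and 4.45 TPM), Nkx2-1 (9.18 and 6.80 TPM), Pomc (8.80 and 3.89 TPM) and Trh (8.85 and 3.37 TPM), and the lowest Sim1 (0.78 and 0.37 TPM). Avp made up much of the gap between the sums. Oxt went the other way, at 1.14 and 2.16 TPM from 12 and 20 reads. The 7 choroid plexus markers summed to 838 and 373 TPM, with 7 of 7 higher in replicate 1, 6 of 7 at 1 TPM or more and none at 0. They were led by Ttr (761 and 331 TPM), Folr1, Kcne2 and Otx2, with Kl the lowest at 0.26 and 0.23 TPM. From scaled reads, the median log2 ratio was 0.77 over the hypothalamic and 0.997 over the choroid plexus markers. Over all genes with 10 or more summed reads it was -0.000173. Mesenchymal markers, with the sums given above, did not move with them. The part of these tissues in the Dlk1, Magel2 and Nap1l5 differences was not tested.

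**Figure D5:**
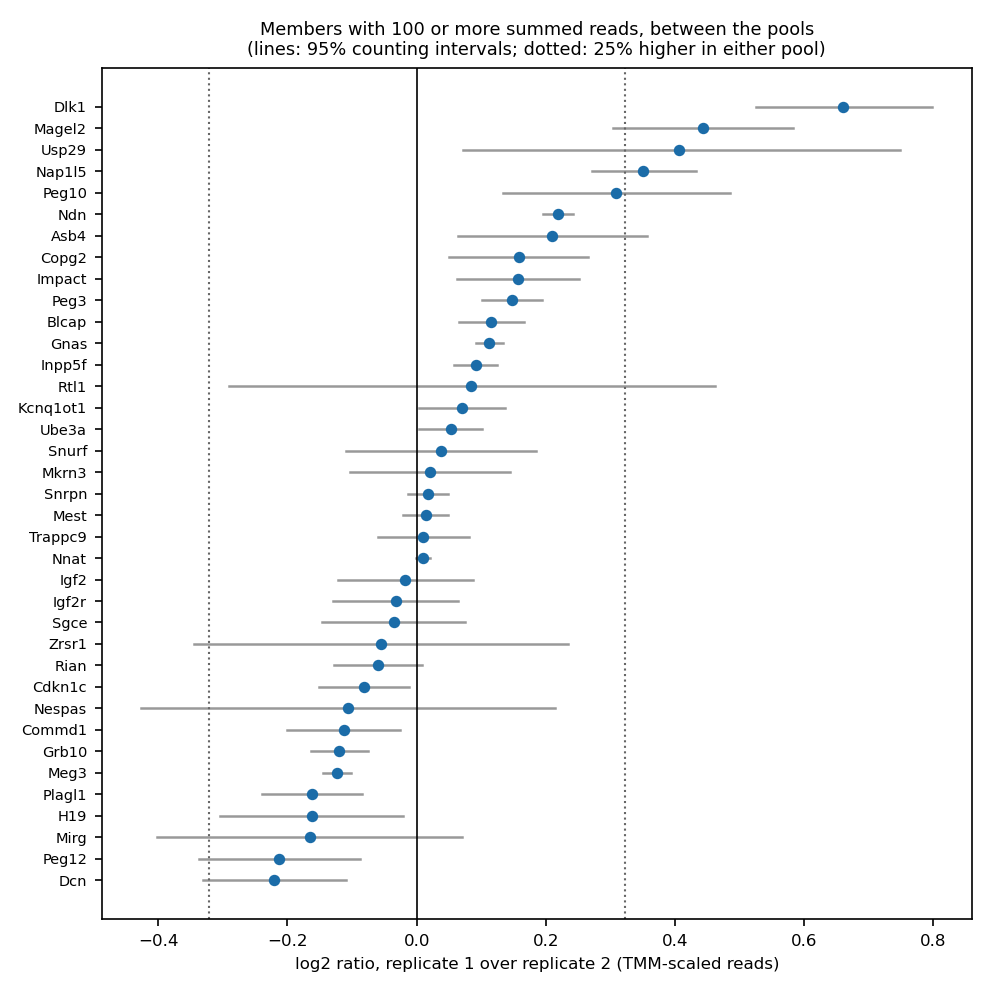
log2 ratio of replicate 1 over replicate 2, from scaled reads, for the imprinted genes with 100 or more summed reads, with 95% counting intervals as lines and a 25% difference as dotted lines. Dlk1, at 0.66, stands furthest from 0, and Magel2, Usp29 and Nap1l5 also lie right of the dotted line.

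The genes that keep and read imprints were mostly well measured. Of 17 listed, 14 stood at 1 TPM or more in both libraries, against 60.6% of protein-coding genes. Zfp57, the zinc finger protein that holds methylation at imprinting control regions in the early embryo, was the highest at 274 and 282 TPM, followed by its partner Trim28 at 211 and 230 TPM. Ctcf, the insulator protein that binds the maternal control region of Igf2 and H19, had 124 and 122 TPM, and Arid4b, linked to the Prader-Willi control region, had 76.4 and 74.9 TPM. The factors of the germ line were at or near 0. Dnmt3l was at 0 reads in each library, so that levels of up to 0.116 and 0.126 TPM (3 reads) could have been missed. For Dppa3, also at 0 reads, those limits were 0.193 and 0.210 TPM. Ctcfl, the testis relative of Ctcf, had 4 reads in replicate 1 and 0 in replicate 2.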

How the data were processed

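Total RNA of 2 pools of E15.5 mouse forebrain was sequenced, and each library has a table of genes and one of transcripts. Per the labels' protocols, RNA was extracted with mirVana, RNA over 200 nt was used at 10 ng per library with spike-ins, and a SMARTer Ultra Low cDNA kit manual is among the linked protocols. The build was mm10 with GENCODE M4 gene models, as notes deposited beside the tables state. No source used here names the aligner, the quantifier or the strand setting.

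Expected counts, as deposited, are the authors' estimates of reads, divided among transcripts that share them. The deposited TPM values scale them by effective length to 1 sum per library, spike-ins included. Percent values in the deposited transcript tables state how much of a gene each transcript holds. Lengths come from the same deposited tables.

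Of 69691 entries, 43346 were mouse genes, 96 spike-ins, 1 phiX and 26248 transfer RNAs, the last left out. Names, coordinates and transcript names came from GENCODE M21, which uses that assembly with other gene models; symbols matched 42462 genes (98.0%) and 41 of 42 members. Promoter and microRNA sequences came from RefSeq (GRCm38.p6); windows matched 32 members.

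Members, classes, lists and alternatives were chosen with earlier results of these data known. All members are named; of other lists, the 4 highest and the lowest measured gene (endothelial and red cell lists are given as sums), and for transcripts those under 60% plus a listed set. Snhg14, Herc3, Kcnq1, Nkx2-1, Oxt, Dppa3 and Dnmt3l were named for their overlap or value. Medians use log2(TPM + 0.1). Pool ratios use expected counts rounded to whole numbers, TMM scaling (edgeR 4.0.16), 0.5 reads added and exact binomial 95% intervals. The fold calculation was also run on simulated counts, in which the changed genes were set beforehand. That run checks the calculation only. It does not test the limit set on the fold in these libraries, and no conclusion is drawn from it. DESeq2 1.42.0 size factors, spike-in scaling, other filters and each library alone were alternatives. The labels describe separate pools but give both the same donor entry, so the spread may be partly technical. No results were tested across groups, as there is 1 group.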

Additional observations from a re-analysis of the deposited data

How the results depend on the processing

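The count of members at 1 TPM or more was 37 in each library alone and 35 to 39 at other limits. The median level (log2 5.02 in the main calculation) ran from 4.96 to 5.08 in single libraries, and was 5.38 without length correction, 4.90 as a mean over members and 5.28 among members at 1 TPM or more. The paternal minus maternal difference (0.42) ran from -0.0174 to 0.40 in single libraries, and was -0.0898 without length correction, 0.75 as a mean, -0.15 among members at 1 TPM or more and -1.55 without members of tissue-dependent imprinting. The coding minus noncoding difference (1.60) ran from 1.56 to 1.83 in single libraries, and was 0.96 without length correction, 1.01 as a mean, 1.88 among members at 1 TPM or more and -0.20 without antisense or nested RNAs. Without length correction 21 pairs stayed beyond 2 SD, but of 22 pairs 17 moved by more than their SD, 4 did not, and Cdkn1c over Kcnq1ot1 reversed to -0.16. Members past the fold between pools numbered 7 with TMM and with DESeq2 factors (21.7% of all genes in both), 9 with spike-in scaling (30.3%; 1 higher and 8 lower in replicate 1, beside 4 and 3), 2 at 1.5-fold (11.3%) and 3 at 1000 or more summed reads (1.56%), the last chosen after seeing the data. Split transcripts numbered 9 to 12. Alternatives that removed members or length correction also changed what was measured. The cause of the shifts was not tested. No paired analysis was possible because the series holds 1 group. Members under 100 summed reads (Airn, Zim1, Slc22a18, Phlda2) are limited by depth.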

Other observations

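Beyond the list followed above, 42 of 45 further imprinted genes had a row, and 30 of them stood at 1 TPM or more in both libraries, against 60.6% of protein-coding genes and 34.4% of all genes. Their median was 4.05 TPM, close to the 4.76 TPM of protein-coding genes and below the 32.4 TPM of the members above; the lists were drawn up by hand, so this describes the choice of genes as much as imprinting. The highest were Nap1l4, a nucleosome assembly protein gene (273 and 264 TPM), Cd81, a tetraspanin gene (243 and 233 TPM), both at the edge of the Kcnq1 cluster, H13, a signal peptide peptidase gene (131 and 135 TPM), and Tssc4 (96.2 and 97.5 TPM). The lowest was Klf14, at 0.12 and 0.17 TPM from 8 and 11 reads.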
